A study of Gallus gallus with 6 samples.

Results

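The 8 pigment genes *ASIP*, *TYR*, *TYRP1*, *DCT*, *PMEL*, *MITF*, *MC1R* and *KIT* were followed across growing wing, leg and neck feathers of adult chickens. They were taken by gene name from 2 deposited RNA-seq tables that together name 9693 genes. All 8 are listed in the second table and 5 of them also in the first. The donors were untreated wild type birds (*Gallus gallus domesticus*), male by the paper's methods, and the labels give 2 libraries for each of the 3 regions, 6 in all. The first table carries replicate 1 of every region and the second carries replicate 2. The labels name wing contour feathers, leg feathers and neck feathers in growth. The series' design text says that the mesenchyme was removed and the branching epithelium of several feathers pooled, whereas the paper's methods name whole follicles or dissected dermal papilla and pulp. The plumage colour of the birds is not given in the sources used here. In the second table the column headers carry a different chicken number for wing, leg and neck. Whether that number marks a bird is not stated. If it does, region and bird cannot be told apart there.

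Feather colour comes from melanocytes, which make melanin in organelles called melanosomes and hand these to the keratinocytes of the growing barbs. *TYR* encodes tyrosinase, the enzyme that starts melanin synthesis, and *DCT* and *TYRP1* encode enzymes that act after it on the way to dark eumelanin. *PMEL* encodes the protein of the fibrils on which melanin is laid down. *MITF* is the transcription factor that maintains the melanocyte lineage, and *KIT* is a receptor that melanocyte precursors need to survive and migrate. *MC1R* is the melanocortin receptor that favours eumelanin, and *ASIP*, a secreted protein, is its antagonist and favours yellow to red pheomelanin. In mammals *ASIP* is made by dermal papilla cells of the hair follicle rather than by melanocytes.

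The tables were read separately, since their units may differ. The first holds whole numbers of unstated unit for 6534 entries, none with a mean over its 3 libraries below 9.67. The second holds FPKM (fragments scaled for gene length and sequencing depth), and 765 of its 6534 genes are at 0 throughout. Depth is unknown for every library, and levels of different genes were set against each other only as FPKM, which is scaled for length. A ratio of genes within the first table serves only to compare regions, since it may carry the lengths of both genes. Values summed to 1780292 in wing, 3051339 in leg and 4195932 in neck in the first table, and the FPKM values summed to between 701758 and 805460. *EPCAM*, an epithelial adhesion gene, had an FPKM of 932 in wing, 688 in leg and 872 in neck. Other keratinocyte genes differed from it. *KRT14* had an FPKM of 972, 281 and 275, and *SFN* had 1576, 1509 and 1771. Of 10 keratinocyte genes listed in the second table, 6 were higher in wing than in neck and 1 was lower, the others being listed at 0.

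*ASIP* was far higher in wing than in the other regions, in both tables. Its FPKM was 274 in wing, 13.0 in leg and 5.12 in neck. The first table gave 114 in wing, 10 in leg and 3 in neck. Wing stood above leg, and leg above neck, in both tables. Wing exceeded neck 53.5-fold in FPKM and 38-fold in the first table, and exceeded leg 21.0-fold and 11.4-fold. Among all 6534 entries ordered by their difference in log2(value + 1) between wing and neck, *ASIP* ranked 1 in the second table and 19 in the first. In the first table *ASIP* averaged 6.5 over leg and neck, under the lowest mean listed there, so that it could be listed only through its wing value. The second table has no such limit.

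*TYR* was also highest in wing and followed a different order in the other regions. It had an FPKM of 209 in wing, 36.0 in leg and 48.7 in neck, and first-table values of 77, 17 and 26 in that order. Wing was above leg 5.81-fold and above neck 4.30-fold in FPKM, and 4.53-fold and 2.96-fold in the first table. Leg lay below neck in both tables, the reverse of *ASIP*. In bulk RNA, fewer cells of a type and less RNA per cell cannot be told apart.

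*PMEL* had values of 62 in wing, 17 in leg and 24 in neck in the first table, the same order as *TYR*. The second table lists *PMEL* at 0 in all 3 libraries. Its entry in the first table lies on chromosome 33, and all 10 genes of that chromosome shared by the tables are at 0 throughout the second, against 51 of all 2191 shared genes. The 0 therefore gives no level for *PMEL*, and the regions are compared for it in 1 table only.

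*TYRP1* went the other way. Its FPKM was 0.203 in wing, 20.2 in leg and 13.7 in neck, so that leg exceeded wing 99.9-fold and neck exceeded wing 67.8-fold. The wing value is too low to compare closely, so these folds are rough. In log2(FPKM + 1) the difference was -4.14 for wing against leg and -3.61 for wing against neck. Among all 6534 genes of the second table, *TYRP1* ranked 9 from the lowest for wing against neck and 5 from the lowest for wing against leg. It is not among the entries of the first table, and its mean FPKM was 11.4. With 1 library per region, this difference has no replicate. *DCT*, the other enzyme after tyrosinase, was at the bottom of the range, at 0.316 FPKM in wing, with leg and neck listed at 0. No direction can be read for *DCT* from these values.

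*KIT* and *MITF* varied little. *KIT* had an FPKM of 73.9 in wing, 65.5 in leg and 70.5 in neck, and first-table values of 24, 22 and 28. *MITF* had an FPKM of 56.1 in wing, 38.9 in leg and 49.4 in neck, and first-table values of 25, 16 and 24. Leg was the lowest region for both genes in both tables, while wing and neck changed places for *KIT* between the tables. *MC1R*, which only the second table lists, had an FPKM of 1.19 in wing, 0.399 in leg and 0.689 in neck. This is low beside its antagonist, and the ratio of *ASIP* to *MC1R* in FPKM was 231 in wing, 32.6 in leg and 7.44 in neck. *MC1R* is too low to compare closely, so these ratios are rough, and they have no replicate. Across the 8 genes, 5 reached a value of at least 1 in every library of a table that lists them, the exceptions being *TYRP1*, *DCT* and *MC1R*.

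Counted table by table, 3 of the 5 pigment genes of the first table (*ASIP*, *TYR* and *PMEL*) were higher in wing than in neck by at least 1 in log2(value + 1), where 5.45% of all its entries were, and 0 were lower, where 7.79% were. The same 3 were higher in wing than in leg (10.7% of all entries higher and 4.78% lower). *ASIP* could be listed in this table only through wing, so its place in both counts is no independent support. *TYR* and *PMEL* averaged 21.5 and 20.5 over leg and neck there, so that limit does not apply to them. Between leg and neck only *ASIP* reached that size, higher in leg (1.78% higher and 4.35% lower). In the second table *ASIP* and *TYR* were higher in wing than in neck by that margin and *TYRP1* was lower, where 11.9% of all genes were higher and 1.35% lower. The same held for wing against leg (11.3% and 1.67%). Between leg and neck *ASIP* was higher in leg, where 2.22% of genes were higher and 0.658% lower.

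**Figure D1:**
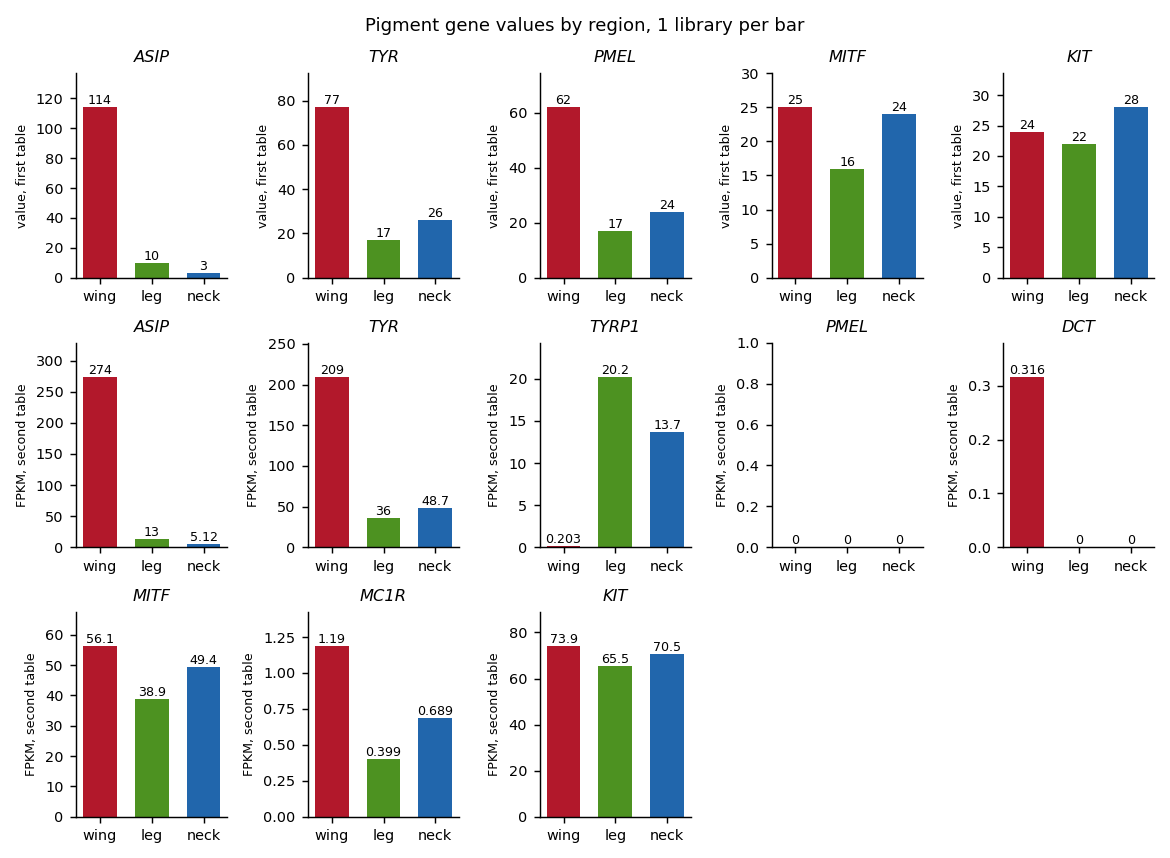
Values of the pigment genes in wing, leg and neck, with 1 bar per library and all axes starting at 0. The top row shows the 5 genes of the first table (unit not stated), and the rows under it the 8 genes of the second table in FPKM. *ASIP* and *TYR* stand highest in wing in both tables, *TYRP1* is at 0.203 FPKM in wing, and *PMEL* is listed at 0 in the second table.

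The regions were compared over all 2191 genes listed once in both tables with limma on log2(value + 1), taking the tables as a block. With 2 residual degrees of freedom for each gene, limma used a spread pooled over genes of similar level, so that SE and adjusted p-values do not reflect the gene's own replicates. With each gene's own spread, limma called 0 genes in any comparison, with 439 genes at an unadjusted p-value under 0.05 for wing against neck, 712 for wing against leg and 291 for leg against neck. All calls below rest on that pooling, and on taking the tables as replicates. The sources do not say whether the 2 libraries of a region came from separate birds, so p-values measure only the spread between these libraries. The median log2 change of all genes was 0.14 for wing against neck, 0.32 for wing against leg and -0.20 for leg against neck, and changes are best read against it. These medians average tables that differ. Over all entries of the first table the medians were -0.08, 0.23 and -0.31, and over those of the second 0.29, 0.30 and 0. The share of calls that were higher in the region named first was 70.2%, 87.2% and 14.7% in these comparisons, against 46.3%, 48.6% and 45.5% with quantile normalization.

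For wing against neck, 2 of the 5 pigment genes tested were called, both higher in wing, where 27.7% of all genes were called, 19.5% as higher and 8.26% as lower in wing. *ASIP* was higher by a log2 change of 5.17 ± 0.18 (SE, n = 2 libraries per region; adjusted p = 5.52e-165 by limma), which is 5.03 above the median gene. *TYR* was higher by 1.81 ± 0.17 (adjusted p = 2.47e-23), or 1.67 above the median gene. With their own spread both had an adjusted p of 0.18. After quantile normalization limma gave an adjusted p of 0.0022 for *ASIP* and 0.0011 for *TYR*. *ASIP* entered the fit only through its wing value in the first table, so its p-values for wing describe the size of the difference and are no independent support for it. The FPKM values carry no such limit but have 1 library per region. For *PMEL*, at 0 in the second table, the fit holds 1 informative value per region and is no test. Its difference in the first table was 1.33 in log2(value + 1). *MITF* at 0.12 ± 0.17 and *KIT* at -0.07 ± 0.17 did not pass, with adjusted p-values of 0.66 and 0.80. With median centring *KIT* was called as lower in wing (-0.23, adjusted p = 0.027).

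For wing against leg, 4 of the 5 genes passed the threshold, all higher in wing, but 1 of them was *PMEL*. With genes at 0 in a table left out, 3 of 4 were called (*ASIP*, *TYR* and *MITF*). Over all genes 46.7% were called, 40.8% as higher and 5.98% as lower in wing. The log2 changes were 3.84 ± 0.18 for *ASIP* (adjusted p = 1.59e-94) and 2.31 ± 0.17 for *TYR* (adjusted p = 1.33e-37), both with an adjusted p of 0.12 from their own spread. After quantile normalization limma gave an adjusted p of 0.0054 for *ASIP* and 0.00072 for *TYR*. *MITF* had 0.57 ± 0.17 (adjusted p = 0.0034). For *MITF* this is 0.24 above the median gene, and its call was lost with quantile normalization (adjusted p = 0.074) and with median centring (adjusted p = 0.078). The first-table difference of *PMEL* was 1.81, with no test. *KIT* had 0.15 ± 0.17 (adjusted p = 0.50), -0.18 against the median gene, and was called as lower in wing with median centring (-0.22, adjusted p = 0.024).

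For leg against neck, 2 of the 5 were called, 1 in each direction, where 12.1% of all genes were called, 1.78% as higher and 10.4% as lower in leg. *ASIP* was higher in leg by 1.33 ± 0.18 (adjusted p = 1.81e-11). It lay 1.52 above a median gene that was itself lower in leg, and with quantile normalization the change was larger, at 2.096, and not called (adjusted p = 0.064). *TYR* was lower by a log2 change of -0.50 ± 0.17 (adjusted p = 0.034), or -0.31 against the median gene, and this call was lost with quantile normalization (adjusted p = 0.13) and with median centring (adjusted p = 0.082). Own-spread adjusted p-values were 0.37 for *ASIP* and 0.41 for *TYR*.

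**Figure D2:**
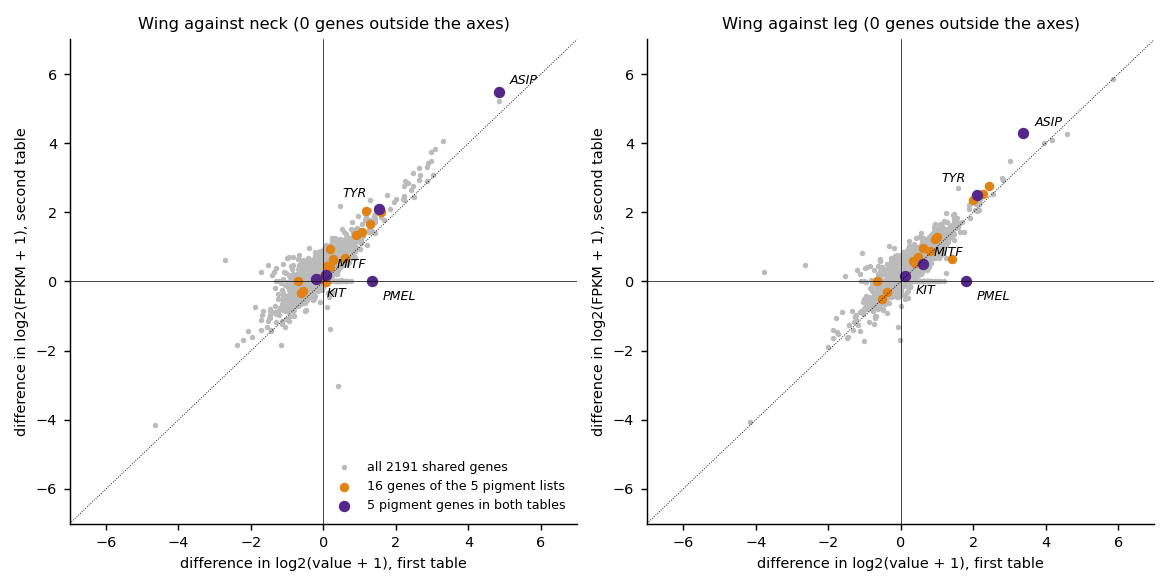
Difference in log2(value + 1) in the first table (x axis) against the second (y axis), for wing against neck on the left and wing against leg on the right, with 1 point per gene for the 2191 shared genes. The dotted line marks equal differences. *ASIP* lies far from the cloud in both tables, *TYR* is higher in wing in both, and *PMEL* sits on the horizontal axis because the second table lists it at 0.

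A further 5 lists of pigment genes were drawn up by role, with earlier results of these data known. Counts over them are therefore a description and no independent support. They hold 84 genes in all, of which the second table lists 40 and the first gives 30 an entry of their own. In limma 16 were fitted, some of which entered the first table only through wing. For *ERBB3*, at 0 throughout the second table, the fit is no test, as for *PMEL*. With genes at 0 in a table left out 15 were tested, and the counts of calls given next were unchanged. For wing against neck 9 were called as higher and 0 as lower in wing, beside 19.5% and 8.26% of all genes, with a median log2 change of 0.45 against 0.14 for all genes. In the fit with the 4 libraries of these regions 5 were called as higher. That fit called 199 of all 2191 genes, 69.3% of them as higher. For wing against leg 12 were higher and 1 lower, beside 40.8% and 5.98% of all genes (median 0.69 against 0.32), and for leg against neck 0 were higher and 3 lower in leg, beside 1.78% and 10.4% (median -0.17 against -0.20). With quantile normalization the counts were 7 higher and 2 lower for wing against neck and 9 higher and 2 lower for wing against leg. For leg against neck they were 0 in each direction. Of all 2191 genes that setting called 795, 932 and 209 in these comparisons, 46.3%, 48.6% and 45.5% of them as higher. By FPKM alone, 9 of 40 were higher in wing than in neck by at least 1 in log2(FPKM + 1) and 0 were lower by as much, beside 11.9% and 1.35% of all its genes. Membership of the first table depends on the mean, so a low gene raised in 1 region can enter it through that region alone.

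Genes of the melanosome itself mostly stood highest in wing. *MLANA*, a melanosome membrane protein whose entry in the first table lies on chromosome Z from 27814584 to 27819688, had values of 575 in wing, 104 in leg and 147 in neck. *MFSD12*, which carries cysteine into melanosomes, had 77, 7 and 15, and *GPNMB*, a relative of *PMEL* that macrophages also express, had 628, 212 and 192. Wing was the highest region for each of these.

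*GPR143*, a receptor of the melanosome membrane that limits melanosome size, had an FPKM of 86.3 in wing, 16.0 in leg and 20.6 in neck, with first-table values of 35, 8 and 11. *SLC45A2*, a melanosome transporter altered in Silver chickens, had an FPKM of 86.1, 14.0 and 26.3, with first-table values of 33, 6 and 13. Both were called in limma as higher in wing than in neck (log2 changes of 1.80 ± 0.18 and 1.48 ± 0.18) and than in leg (2.18 ± 0.18 and 2.41 ± 0.18), with adjusted p-values of at most 7.95e-15. *SLC45A2* was also lower in leg than in neck (-0.93 ± 0.18, adjusted p = 1.11e-05). With quantile normalization its changes against neck were 1.32 for wing and -1.66 for leg and were not called (adjusted p = 0.13 each). In the first table both genes averaged 9.5 over leg and neck, so they too entered the fit only through wing, and their p-values for wing are a description and no independent support.

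Not every melanosome gene was highest in wing. *RAB32*, a small GTPase that helps deliver tyrosinase to melanosomes, had an FPKM of 248 in wing, 526 in leg and 418 in neck, while its close relative *RAB38* had first-table values of 52 in wing, 11 in leg and 30 in neck. *SLC7A11*, a cystine importer of the plasma membrane, had 27, 31 and 30. These genes have no test, since *RAB38* and *SLC7A11* are absent from the second table and *RAB32* shares an entry with another gene in the first.

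Most transcription factors of the list stood highest in wing, but most genes were also higher there by FPKM. Of the 11 factors with an FPKM, 9 were higher in wing than in neck, beside 4580 of all 6534 genes. Against leg 9 of the 11 were higher in wing, beside 4525 of all genes, so this share is no mark of the factors. *CREB1*, a factor activated by cyclic AMP signalling, was lowest in wing, with an FPKM of 16.3 in wing, 19.5 in leg and 17.7 in neck. *SOX10* had an FPKM of 8.53 in wing, 1.65 in leg and 1.92 in neck, and *PAX3* had 6.52, 1.52 and 0.753. Wing stood 4.45-fold above neck for *SOX10* and 8.66-fold for *PAX3*, with 1 library per region. *SOX9*, *SOX5*, *IRF4* and *TFEC* were low, at most 1.51, 1.97, 0.982 and 0.259 FPKM. *TFAP2B*, a regulator of melanocyte differentiation in mouse, had an FPKM of 73.9, 9.94 and 17.1 and first-table values of 37, 6 and 16. Limma called *TFAP2B* higher in wing than in neck by 1.60 ± 0.18 and than in leg by 2.61 ± 0.18, and lower in leg than in neck, with adjusted p-values of at most 2.56e-06. With quantile normalization its changes against neck were 1.33 for wing and -1.76 for leg and were not called (adjusted p = 0.17 and 0.15). *LEF1*, a Wnt effector that also acts in keratinocytes and dermis, was higher in wing by 1.13 ± 0.17 against neck and 1.15 ± 0.17 against leg (adjusted p of at most 2.01e-09). All 3 factors tested were called as higher in wing in both comparisons, beside 19.5% of all genes against neck and 40.8% against leg, the third being *TFAP2A* (0.56 ± 0.17 and 0.46 ± 0.17, adjusted p = 0.0063 and 0.018), whose call against leg was lost with quantile normalization (adjusted p = 0.33) and median centring (adjusted p = 0.53) and its call against neck with 4 libraries (adjusted p = 0.23).

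Ligands and receptors differed in direction. *EDNRB2*, the endothelin receptor that guides avian melanoblasts, had an FPKM of 53.9 in wing, 22.4 in leg and 19.2 in neck, and was called as higher in wing than in neck by 1.25 ± 0.18 and than in leg by 1.09 ± 0.18 (adjusted p of at most 2.27e-08). *KITLG*, the ligand of *KIT*, had an FPKM of 118, 169 and 144, and was called as lower in wing than in leg (-0.51 ± 0.18, adjusted p = 0.014). For wing against neck *KITLG* had -0.42 ± 0.18 (adjusted p = 0.073), and was called as lower in wing with quantile normalization (-0.60, adjusted p = 0.0068) and median centring (-0.58, adjusted p = 0.0014). *POMC*, the precursor of the hormone that activates *MC1R*, had an FPKM of 8.70, 2.22 and 1.56, so that wing stood 5.58-fold above neck with no replicate. *CPE*, a carboxypeptidase that trims such hormones, had first-table values of 55 in wing, 22 in leg and 22 in neck. *AGRP*, the other known antagonist of melanocortin receptors, was at 0.0407 FPKM in wing, with leg and neck at 0. Of proteins that *ASIP* needs in mouse, *ATRN* had first-table values of 11 in wing, 16 in leg and 22 in neck, and *MGRN1* 18, 9 and 12.

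Genes for building lysosome-related organelles and for moving melanosomes had smaller differences. The 4 organelle genes tested were all called as higher in wing than in leg (log2 changes of 0.46 to 0.84) and 3 of them as higher than in neck (0.44 to 0.63), beside 40.8% and 19.5% of all genes, with *DTNBP1* the largest in each. They were *DTNBP1* and *BLOC1S2*, which belong to a complex that sorts melanosome cargo, and *AP3M1* and *AP3S1*, subunits of the adaptor AP-3, of which *AP3S1* was not called against neck (0.30, adjusted p = 0.19). The calls of *AP3M1* and *AP3S1* against leg were lost with quantile normalization (adjusted p = 0.21 and 0.11) and median centring (adjusted p = 0.23 and 0.18). With the 4 libraries of wing and neck all 3 calls against neck were lost (adjusted p = 0.16 for *DTNBP1*, 0.42 for *BLOC1S2* and 0.43 for *AP3M1*). *HPS1* had an FPKM of 56.3 in wing, 23.6 in leg and 27.6 in neck and *BLOC1S6* 30.8, 14.0 and 15.5, with no test. Of 4 transport genes tested, 0 were called for wing against neck and 2 for wing against leg, both higher in wing and near the 40.8% of all genes, *MYO5A* and *RAB11B* (0.59 ± 0.17, adjusted p = 0.0023). With quantile normalization *RAB11A* was called as lower in wing than in neck (-0.56, adjusted p = 0.0095) and than in leg (-0.67, adjusted p = 0.0047). Median centring also called *RAB11A* as lower in both (-0.63 and -0.70, adjusted p = 0.0011 and 0.00073). *MYO5A*, the motor that carries melanosomes to the cell edge, had an FPKM of 52.1 in wing, 32.7 in leg and 52.9 in neck, with leg lowest in both tables. It was higher in wing than in leg by 1.03 ± 0.17 and lower in leg than in neck (-1.01 ± 0.17, adjusted p of at most 3.88e-07), the second of which was lost with quantile normalization (adjusted p = 0.069). Of its partners, *RAB27A* had an FPKM of 422 in wing, 283 in leg and 348 in neck. *MLPH*, mutated in lavender chickens, had 51.7, 33.5 and 31.8.

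**Figure D3:**
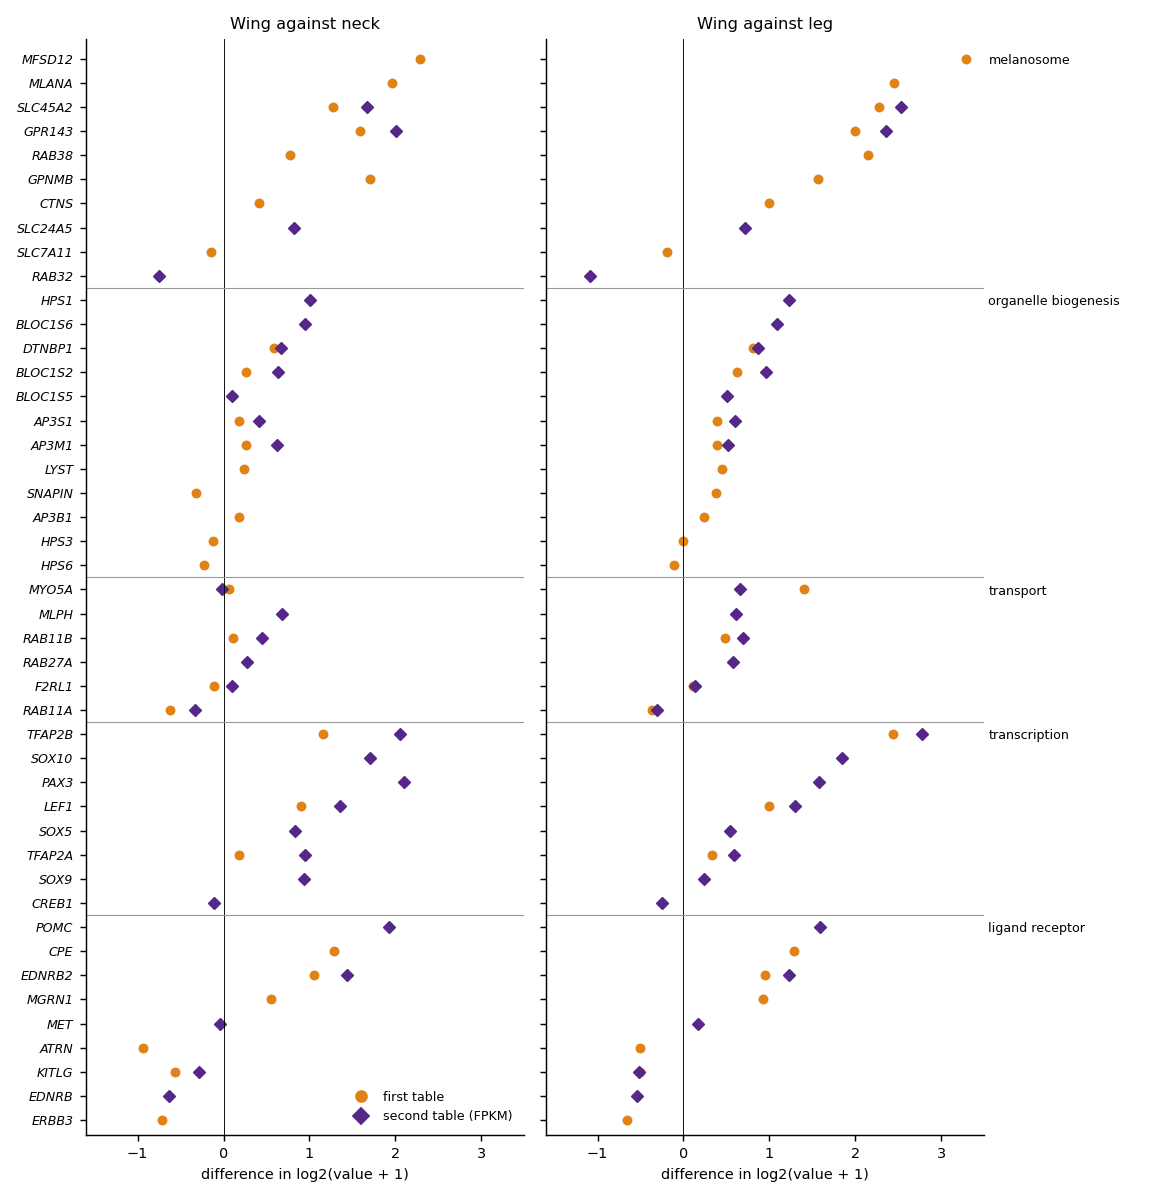
Difference in log2(value + 1) for wing against neck (left) and wing against leg (right) for the genes of the 5 pigment lists that reach 1 in a library of that table, entries joining several genes left out, with circles for the first table and diamonds for the second. Lists are separated by grey lines. *MFSD12* lies furthest to the right in both comparisons (2.29 and 3.29), and *RAB32* (-0.75 and -1.09) and *KITLG* lie left of 0 in both.

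Ratios within a library do not depend on how the libraries are scaled, and they divided the genes. *GPR143* kept nearly the same ratio to *TYR* in all regions, with an FPKM ratio of 0.412 in wing, 0.444 in leg and 0.424 in neck and a first-table ratio of 0.455, 0.471 and 0.423. *SLC45A2* to *TYR* was 0.411, 0.390 and 0.541 in FPKM. *PMEL* to *TYR* in the first table was 0.805, 1 and 0.923. By contrast *TYRP1* to *TYR* was 0.000967 in wing, 0.562 in leg and 0.282 in neck. The wing ratio is rough, since *TYRP1* is too low there to compare closely. *TYR* to *KIT* was 2.83, 0.550 and 0.691 in FPKM and 3.21, 0.773 and 0.929 in the first table, so *TYR* was highest relative to *KIT* in wing in both tables. *KIT* to *MITF* was 1.32 in wing, 1.68 in leg and 1.43 in neck in FPKM. In the first table it was 0.96, 1.375 and 1.17, so wing was lowest and leg highest in both tables.

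**Figure D4:**
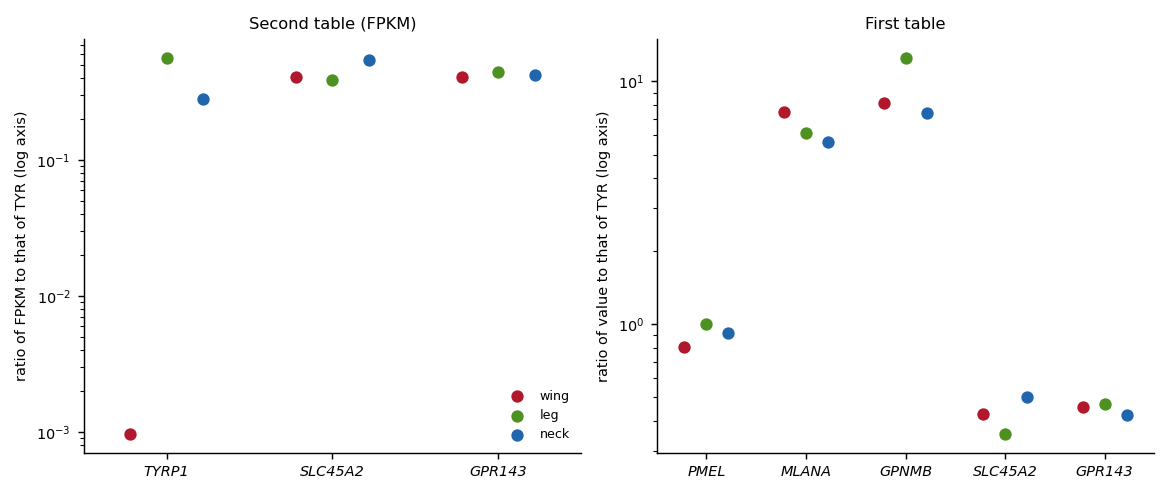
Ratio to *TYR* within each library, on log axes, of *TYRP1*, *SLC45A2* and *GPR143* in the second table (left) and of *PMEL*, *MLANA*, *GPNMB*, *SLC45A2* and *GPR143* in the first (right), with 1 point per region. In wing the *TYRP1* ratio is 0.000967, a rough value because *TYRP1* is so low there. The ratios of *SLC45A2* and *GPR143* lie between 0.353 and 0.541 in every library of both tables.

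Likeness of profile was measured over the 6 libraries as the Euclidean distance between log2(value + 1) profiles centred within each table, a description over genes that share these libraries. Nearest to *TYR* was *GPR143* at a distance of 0.16, followed by *APCDD1*, *VSNL1*, *FAM129A* and *SOCS2* at 0.22 to 0.38, where the median gene stood at 2.17. *ASIP* was at 3.38 from *TYR*, in a measure that also grows with the size of a change. Counted from *ASIP*, *TYR* ranked 25 among all genes, with a Pearson r of 0.90 between the profiles. The nearest to *ASIP* were *MGP*, *SERPINF1*, *LY86*, *COL1A2* and *CXCL14*, at 2.25 to 2.45, where the median gene stood at 5.19. *COL1A2*, which encodes a chain of type I collagen, had an FPKM of 158 in wing, 39.6 in leg and 13.3 in neck. *CXCL14*, a chemokine, had first-table values of 114 in wing, 1 in leg and 3 in neck. *MGP*, *LY86* and *CXCL14* had at most 5 in leg and neck there, so like *ASIP* they could be listed only through wing. *SOCS2*, with 5 in leg and 10 in neck, and *GPR143* entered near *TYR* in the same way. Likeness among such genes is partly set by that entry and is no independent support. The nearest to *MITF* included *RAC1*, *HSPH1*, *GID8* and *RAB33B*, at 0.06 to 0.08 (median gene 0.53). Those nearest to *KIT* were *PREP*, *WDR36*, *DCAF13*, *RDX* and *PHAF1*, at 0.04 to 0.07 (median gene 0.46). For *PMEL* the list was shaped by its 0s, and 4 of its 5 nearest genes (*KRT5*, *SARNP*, *SLURP1* and *CDK2*) are likewise at 0 throughout the second table, the other being *EFNA5*.

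Markers of other cell types also differed between the regions. The 17 mesenchyme genes listed in the second table, of 21, summed to an FPKM of 1831 in wing, 974 in leg and 423 in neck, and the 7 listed by the other table to 635, 384 and 202, the order that *ASIP* followed. None was at 0 throughout. Not every gene of the list followed that order. *VIM* had first-table values of 62 in wing, 69 in leg and 75 in neck. *TNC* had an FPKM of 3.53 in wing, 3.78 in leg and 0.947 in neck. The ratio of *ASIP* to *COL1A2* was 1.74 in wing, 0.329 in leg and 0.385 in neck in FPKM and 1.48, 0.313 and 0.333 in the first table, highest in wing in both tables. Blood and endothelium genes (7 of 15 listed, second table only) summed to an FPKM of 88.1, 27.4 and 11.8, and 7 leukocyte genes of 8 to 169, 132 and 49.8, while 2 in the first table summed to 66 in wing, 69 in leg and 27 in neck. The keratinocyte genes, 10 of 14 listed in the second table, summed to 5318, 3939 and 4374, with *KRT5*, *KRT6A* and *KRT75* at 0 throughout. The first-table entry of *KRT5* lies on chromosome 33, so its 0 gives no level. Its first-table values were 519 in wing, 244 in leg and 307 in neck. *KRT6A* and *KRT75* have no first-table entry, and their 0 may be missing annotation. The 8 keratinocyte genes in the first table summed to 1912 in wing, 1854 in leg and 2468 in neck. The tables list partly different keratinocyte genes, so these sums do not show whether the tables differ in the highest region. The part of these cell types in the differences of the pigment genes was not tested. Schwann cells share *SOX10* and *ERBB3* with melanocytes. Of 8 genes of their list, the 7 with an FPKM summed to 33.7 in wing, 19.6 in leg and 21.3 in neck. *ERBB3* is among them, listed at 0. Its first-table entry lies on chromosome 33, so this 0 likewise gives no level and adds nothing to the sum. The first-table values of *ERBB3* were 13 in wing, 21 in leg and 22 in neck. The 2 genes of the list there, *ERBB3* included, summed to 46, 40 and 56. *FABP7* was the highest of the Schwann list by FPKM, *ERBB3* left aside, at 29.0 in wing, 16.6 in leg and 18.9 in neck. *MBP*, a myelin gene of that list, was at most 0.797 FPKM.

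In the first table the *ASIP* entry lies on chromosome 20 from 1628079 to 1661207, *TYR* on chromosome 1 from 187920667 to 187970442, *KIT* on chromosome 4 from 65682457 to 65734704, *MITF* on chromosome 12 from 15509396 to 15597492 and *PMEL* on chromosome 33 from 612989 to 617697. The table names no assembly for these loci. Within 300 kb of the start of *ASIP* it holds 9 other entries, and 0 of them were higher in wing than in neck by 1 or more in log2(value + 1), where 5.45% of all entries of the table were. The nearest genes on each side, *AHCY* and the translation factor entry named *EIF2B* (paired with *EIF2S2* by RefSeq synonyms), had values of 248 in wing, 310 in leg and 297 in neck and of 137, 120 and 161. *MAP1LC3A* had 34, 34 and 77 and *DYNLRB1* 60, 41 and 69. Of the 138 entries of chromosome 20, *ASIP* ranked 1 by its excess in wing over neck, though it could be listed there only through wing. In the other direction an entry named U1, at the coordinates of *AHCY*, had values of 0 in wing, 0 in leg and 988 in neck (-9.95).

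**Figure D5:**
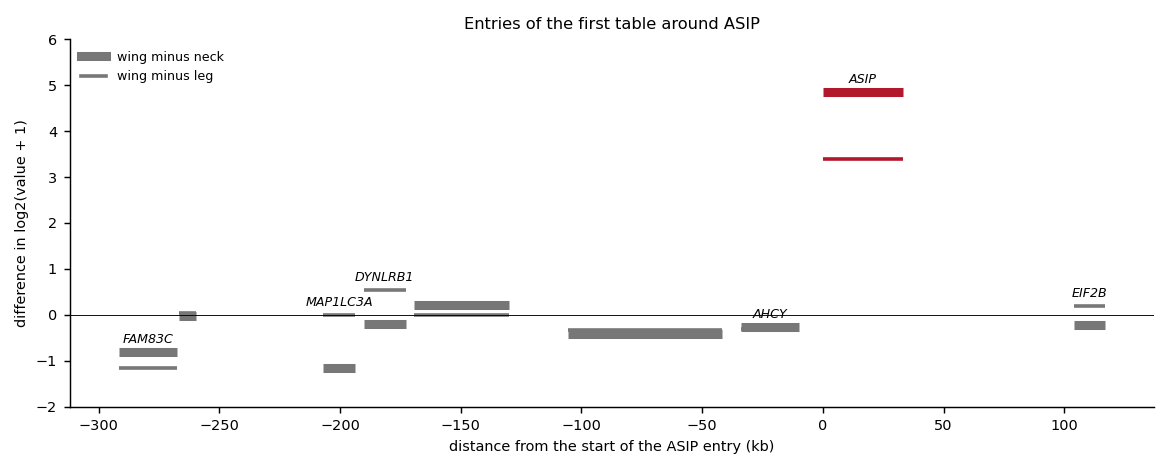
Entries of the first table within 300 kb of the start of *ASIP*, drawn to scale by distance in kb, with the difference in log2(value + 1) between wing and neck (thick bars) and between wing and leg (thin bars). Unlabelled bars are entries without a gene symbol, and the U1 entry at the coordinates of *AHCY* is left out. *ASIP* stands at 4.85 and 3.39, and the other bars lie between -1.17 and 0.54.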

How the data were processed

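The sample labels gave region and replicate number, and they name the table that holds each replicate. The first table, as deposited, holds scores that are whole numbers, with loci and no stated unit, and no count model was used on them. The authors deposited FPKM in the second. The paper names the chicken assembly Galgal4, and the submitters' processing notes name TopHat2 2.1.0 and Cufflinks 2.2.1, while annotation and filters are not given in the sources used here. The authors' mean column was left out, as were 101 rows without values.

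Names were compared without regard to case, older symbols being resolved with the RefSeq gene table of GRCg7b, and entries that join several genes were not matched. Limma (lmFit, eBayes with trend) was fitted to log2(value + 1) with region and replicate number as terms over all 2191 genes, with Benjamini-Hochberg adjustment to 0.05. The replicate block takes out a constant difference between the tables for each gene, and the pairing comes from the labels. It does not take out a scaling that differs by region within a table. The fit was tested on simulated data, where 154 of 200 genes raised in wing by a log2 change of 1 were called, with 3 false calls. Those data had no shift over all genes and no limit on entry to a table. The simulation is therefore no check of the calls made here.

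Genes named are the 8 pigment genes, genes of the 5 lists that passed the test and otherwise the 4 that ranged most over the regions in either table (some are given only in counts), the 5 nearest profiles and the neighbours of *ASIP*. *RAB32*, *SLC7A11*, *AGRP* and U1 were added after their values were seen. Some genes that the rule names are not reported here. Members and lists were chosen with earlier results of these data known. Versions were Python 3.11.15, pandas 2.3.3, numpy 2.4.6, matplotlib 3.10.9, R 4.3.3 and limma 3.58.1.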

Additional observations from a re-analysis of the deposited data

How the results depend on the processing

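The number of the 5 pigment genes called depends on the replicate block and on the pooled spread. Without the replicate block it was 1 for wing against neck (*ASIP*) in place of 2, 0 for wing against leg in place of 4 (*PMEL* included) and 0 for leg against neck in place of 2. The unadjusted p-value was under 0.05 for 2, 2 and 0 of the 5. With each gene's own spread it was 0 in all 3 comparisons, where 2, 3 and 1 had an unadjusted p-value under 0.05. Quantile normalization gave 2 for wing against leg and 0 for leg against neck (3 at an unadjusted p-value under 0.05), and median centring gave 1 for leg against neck. Over all genes, wing against neck had 608 calls, against 1 without the block, 199 with the 4 libraries of these regions only and 1002 with centring. Wing against leg had 1024 against 2 without the block, and leg against neck had 266 against 0 (9 at an unadjusted p-value under 0.05).

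Directions that reversed all belonged to small changes that were not called. With centring they were *MITF* and *MC1R* for wing against neck (-0.034 and -0.10), *DCT* for wing against neck and wing against leg (-0.079 and -0.053) and *KIT* for wing against leg (-0.22, then called). With quantile normalization they were *MITF* for wing against neck (-0.0089) and *KIT* for wing against leg (-0.17), and *KIT* for wing against neck ranged from -0.21 to 0.069 with 1 table left out. *ASIP*, *TYR* and *TYRP1* kept their direction in all 3 comparisons under the alternatives run. With 1 table left out no test was possible, and the values of each table stand in the report. Of the 8 genes, 7 counted as detected at 0.1 or in any library in place of 5, 5 at a value of 5, and 4 to 5 with 1 table left out. No fragment counts were available to set an interval on any level, and *DCT*, *MC1R* and the wing value of *TYRP1* are too low to compare closely.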
